A study of Mus musculus with 8 samples.

Results

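Interferon gamma and the genes of its receptor pathway were followed in the immune cells of transplanted beta cell grafts. The 7 genes were chosen by name from the 32285 genes of the count table, as the ligand (Ifng), both receptor chains (Ifngr1 and Ifngr2), the kinases bound to them (Jak1 and Jak2), an induced transcription factor (Irf1) and an induced inhibitor (Socs1), and all 7 were found. The grafts were made of NIT-1 cells, a beta cell tumor line from the NOD mouse, that were either wild-type (WT) or carried a mutation of Rnls, the gene for Renalase. In the paper's transfer experiments, WT and mutant grafts grew under the skin of opposite flanks of NOD.scid or NSG mice. NOD.scid mice lack T and B cells of their own and keep NK cells and myeloid cells. These hosts received splenocytes of recently diabetic NOD mice. The sequenced grafts came from an earlier study, which the paper describes as transplantation into NOD mice. It does not state whether those hosts were NOD.scid. The mutation was in the NIT-1 cells and not in the immune cells measured. Living CD45+ cells were sorted from grafts taken at day 10 or day 17, marked with hashtag antibodies and sequenced with 3' single-cell RNA sequencing as 4 libraries, one each for WT day 10, Rnls mutant day 10, WT day 17 and Rnls mutant day 17. Each library held 4 grafts, and a graft (a hashtag within a library) is the replicate here.

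Interferon gamma is made mainly by T cells, NK cells and type 1 innate lymphoid cells, and its making is promoted by interleukin-12 and interleukin-18 from myeloid cells. It binds Ifngr1, which pairs with Ifngr2, and the kinases Jak1 and Jak2 on these chains pass the signal on to the nucleus. The signal switches on Irf1, guanylate-binding proteins, antigen-processing genes and the chemokines Cxcl9 and Cxcl10, and also Socs1, which blocks the kinases and ends the signal.

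The table held 22441 cells in 12 deposited cell types and 29 clusters, with at least 1001 UMIs (unique molecule counts) and at most 9.74% mitochondrial UMIs per cell. The grafts summed to between 1742746 and 9729233 UMIs. The median cell had 5902 UMIs in WT day 17 grafts and between 3083 and 3453.5 in the other groups. Levels are CPM, the UMIs of a gene scaled to 1000000 UMIs of a cell type in a graft, for grafts with at least 10 cells of the type, and errors of means are SD over grafts. Each genotype at each day was 1 library, so genotype, day and library cannot be told apart from each other at that level, and p-values measure the spread between grafts. Which WT and mutant grafts shared a host is not given by the labels, so the genotype tests do not use the host. Of the distinct cell barcodes, 42 (0.188%) occurred in more than 1 library. The deposited names fitted their markers with 2 limits. Stem-Progenitor cells were led by histone and division genes (Hist1h1b, Top2a) or by granzymes (Gzmd, Gzmc), and their summed T cell markers (Cd3e, Cd3d, Cd3g, Trac, Trbc2) reached 2863 CPM. Of the cells deposited as NK cells 59.0% held at least 1 UMI of a T cell marker, and of ILC1 61.5%. Among those with an Ifng UMI the shares were 60.2% of 284 NK cells and 69.6% of 92 ILC1. No other type was counted in this way for comparison. Beta cell markers (Ins1, Ins2, Iapp, Chga) were at 0 in the macrophages of 3 groups and reached 1.07 CPM in the other.

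Ifng (chr10:118441046-118445892, GRCm38, + strand) was found in lymphocytes and was near absent from myeloid cells. In all, 22264 Ifng UMIs lay in 3433 cells, 15.3% of the cells. CD4+ T cells held 59.2% of these UMIs, Stem-Progenitor cells 19.1%, CD8+ T cells 13.7%, NK cells 4.38%, ILC1 2.88% and regulatory T cells 0.458%. As the mean over grafts, which weights each graft equally, the shares were 56.5% for CD4+ T cells, 16.3% for CD8+ T cells, 13.97% for Stem-Progenitor cells, 8.03% for NK cells and 4.31% for ILC1, so the order of CD8+ T cells and Stem-Progenitor cells turned. CD4+ T cells made up 21.7% of the cells, Stem-Progenitor cells 3.70% and ILC1 0.985%, so these types held more of the Ifng UMIs than of the cells. A share of cells takes no account of depth, and the median Stem-Progenitor cell had 9652 UMIs, against 3520 over all cells. Of all Ifng UMIs, 18.8% lay in the Stem-Progenitor cluster led by Hist1h1b and Top2a (597 CPM). The cluster led by granzymes held 0.382% (33.1 CPM). Few cells carried most of the message. The 380 cells with 10 or more Ifng UMIs held 15386 of them (69.1%), and the highest cell, a CD4+ T cell, held 852, whereas 47.0% of the cells with Ifng had 1 UMI.

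Among the cell types, ILC1 (824 CPM ± 823, n = 8 grafts) and CD4+ T cells (760 ± 512, n = 16) had the highest Ifng means. They were followed by Stem-Progenitor cells (438 ± 264, n = 12), CD8+ T cells (335 ± 159, n = 16), NK cells (247 ± 131, n = 16) and regulatory T cells (63.2 ± 77.7, n = 14). From ILC1 down to NK cells, neighbours in this order differed by less than the larger of their SDs. Regulatory T cells lay below NK cells in 14 of 14 grafts that held both. The myeloid means were between 0.771 CPM in dendritic cells and 1.75 in granulocytes. An Ifng UMI was seen in 0.390% of macrophages (exact binomial 95% interval 0.259% to 0.563%, counting error only), against 31.7% of CD4+ T cells, with median depths of 4719 and 2823.5 UMIs per cell. When each cell was thinned to 1000 UMIs the shares were 0.0707% and 17.4%, in the same order. Among lymphocytes and Stem-Progenitor cells thinning did change the order. Stem-Progenitor cells, with a median of 9652 UMIs per cell, went from 49.4% to 17.5%, and ILC1 from 41.6% to 27.7%.

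**Figure D1:**
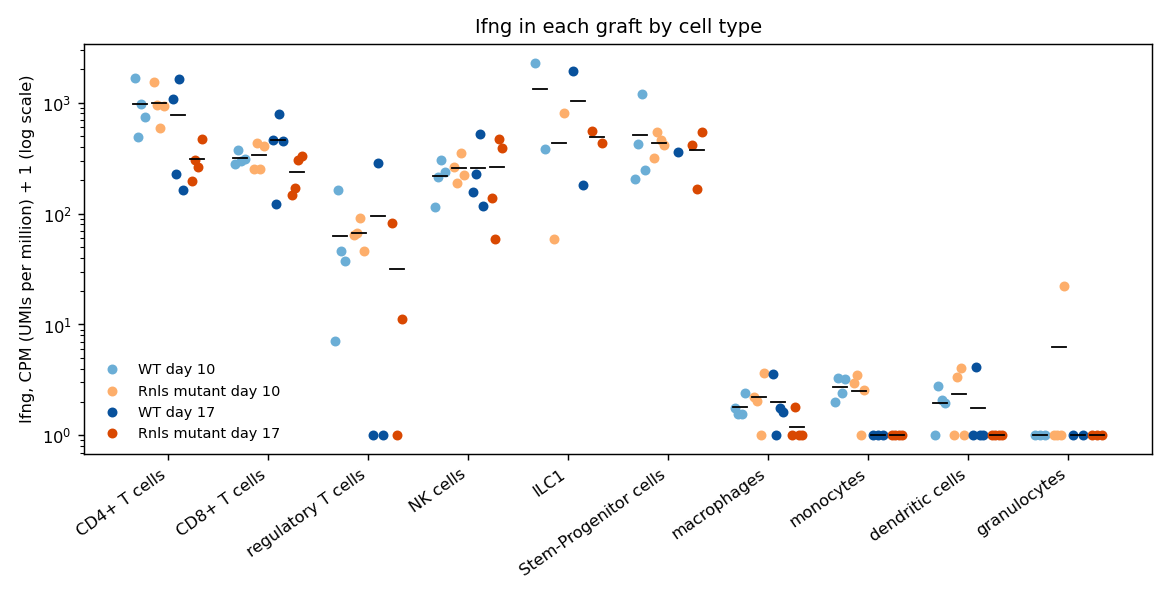
Ifng in CPM plus 1 (log axis) for each graft with at least 10 cells of a type, with points coloured by group and short lines at the group means. Apart from 3 regulatory T cell grafts at 0, lymphocytes and Stem-Progenitor cells lie above most myeloid grafts, which are at or near 0, and the ILC1 grafts run from 58.4 to 2289 CPM.

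Within CD4+ T cells the message was concentrated in one cluster. Cluster 0, whose leading genes were Ccl1, Ifng, Il2 and Csf2, held 42.2% of all Ifng UMIs at 1299 CPM. Cluster 8, led by Tnfsf8, St6galnac3 and Lef1 (a factor of naive and memory T cells), stood at 395 CPM. Cluster 0 was defined in part by Ifng, so its level is no separate finding. Among CD8+ T cells, the 44 cells of cluster 26, led by Ccl4, stood at 1691 CPM, above the 261 of cluster 3. Across the 29 clusters the genes with the pattern most like Ifng were Cxcr6, a chemokine receptor (Pearson r = 0.97), Klrc2 (r = 0.97) and Klrc1 (r = 0.97), both NK cell receptors, and Zap70, a T cell receptor kinase (r = 0.97). Clusters share libraries and depth, and these values are descriptive.

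The day comparison asked whether the pathway differed between grafts at day 17 and day 10. Of the 63 pairs of a member and a cell type, 52 passed the filter on low counts. With edgeR's quasi-likelihood test and Benjamini-Hochberg adjustment over all genes of a cell type, 7 pairs were higher and 10 lower at day 17 as the mean of both genotypes. DESeq2 called 15 of the 52. The day comparison also moved many other genes, from 8.74% of all tested genes in granulocytes to 50.9% in macrophages. The count of called members lies within that range and is no finding about the members. The share of all tested genes called is given for each cell type.

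In CD4+ T cells 4 members were called, where 36.6% of all tested genes were. Ifng in these cells was at 1655, 490, 978 and 746 CPM in the WT grafts of day 10 and at 1522, 942, 593 and 926 in the Rnls mutant grafts. At day 17 it was at 1069, 227, 1617 and 162 in WT grafts and at 195, 303, 264 and 465 in Rnls mutant grafts. The day 17 mutant grafts all lay below every day 10 graft, whereas the WT grafts of day 17 spread from below the lowest to nearly the highest day 10 graft. The log2 fold change was -1.14 ± 0.33 (SE; edgeR adjusted p = 0.00947) over both genotypes, -0.43 ± 0.45 (adjusted p = 0.552) in WT grafts and -1.85 ± 0.49 (adjusted p = 0.00883) in Rnls mutant grafts. Of all genes in CD4+ T cells, 20.7% were called in WT and 22.5% in mutant grafts. The difference between these Ifng changes did not pass (-1.42 ± 0.66, adjusted p = 0.557). The call rested on the most deeply sequenced cells. The 5% of CD4+ T cells with most UMIs held 53.5% of Ifng UMIs in WT day 10 and 35.9% in Rnls mutant day 10 grafts, against 18.8% and 19.2% at day 17, and without them the change was -0.40 ± 0.30 (adjusted p = 0.325).

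The share of CD4+ T cells with an Ifng UMI, thinned to 1000 UMIs per cell, was 17.8% ± 11.5 (n = 8) at day 17 and 16.9% ± 3.19 (n = 8) at day 10, a difference of 0.909 percentage points (exact stratified permutation test, two-sided, adjusted p = 0.909 over 10 comparisons). The makeup of the type moved with the day. Cluster 0 was 61.8% of CD4+ T cells in WT and 54.3% in Rnls mutant grafts at day 10, and 8.16% and 6.39% at day 17, when cluster 8 held 74.5% and 69.8%. Within cluster 0 Ifng was at 1296 ± 843 and 1349 ± 487 CPM at day 10 in WT and mutant grafts (4 each). At day 17 it was at 4645 ± 1918 and 451 ± 75.9 there (2 grafts each). Within cluster 8 it was at 168 ± 98.7 (3 grafts) and 346 ± 225 (4 grafts) at day 10. The day 17 values there were 495 ± 419 and 224 ± 40.1 (4 grafts each). In both clusters the mean was higher at day 17 in WT grafts and lower in mutant grafts, as values without a test. The part of the makeup in the fall of Ifng was not tested. Summed macrophage markers in CD4+ T cells were also higher at day 17, with 193 to 244 CPM in mutant grafts against 15.3 to 37.7 in both day 10 groups.

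No day change of Ifng passed in the other lymphocytes. In NK cells Ifng was at 113, 211, 305 and 238 CPM (WT day 10), 263, 187, 351 and 221 (mutant day 10), 154, 225, 520 and 116 (WT day 17) and 137, 57.7, 470 and 388 (mutant day 17). The 4 groups overlapped and the log2 fold change was 0.13 ± 0.30 (edgeR adjusted p = 0.824). CD8+ T cells (-0.20 ± 0.20, adjusted p = 0.540) and ILC1 (-0.16 ± 0.73, adjusted p = 0.911) did not pass either. Of the tested differences in thinned shares, the one with the smallest p was in NK cells, where 15.97% ± 6.85 at day 17 compared with 10.2% ± 2.496 at day 10 (5.81 points, exact permutation p = 0.0522, adjusted p = 0.522).

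In the sum of all CD45+ cells, Ifng was at 255, 222, 390 and 177 CPM in WT day 10 grafts and at 273, 324, 276 and 370 in mutant day 10 grafts. It was at 377, 73.9, 106 and 43.6 in WT day 17 grafts and at 47.0, 55.6, 72.3 and 95.8 in mutant day 17 grafts. All but one of the day 17 grafts lay below every day 10 graft. The change was -1.57 ± 0.33 (edgeR adjusted p = 0.000779), among 3 of 7 members called where 57.6% of all genes were. In such sums, fewer cells of a type and less RNA per cell cannot be told apart. NK cells, ILC1 and T cells together made up 54.6% ± 3.61 (WT) and 57.5% ± 11.8 (mutant) of the cells at day 10, and 38.9% ± 20.0 and 30.4% ± 2.55 at day 17. Macrophages went from 17.0% and 15.9% to 48.9% and 61.1%.

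The cell types that held a graft's Ifng UMIs varied between grafts. The Stem-Progenitor share of the Ifng UMIs averaged 21.1% ± 10.9 at day 10 and 6.85% ± 8.49 at day 17 (n = 8 grafts each), a difference of -14.3 percentage points that did not pass after adjustment (exact permutation p = 0.0110, adjusted p = 0.132 over 12 comparisons). CD8+ T cells differed by 3.04 points (adjusted p = 0.870) and ILC1 by 4.75 (adjusted p = 0.343). Counted by cells with an Ifng UMI in place of UMIs, 3 day differences passed, -10.1 points for Stem-Progenitor cells, 6.29 for ILC1 and -11.4 for CD8+ T cells, whose direction turned (exact permutation, adjusted p = 0.0114, 0.00490 and 0.00980). The cells were not thinned for this count, so these shares depend on depth. Like the shares of UMIs, they also depend on how many cells of each type a graft gave. CD4+ T cells held 57.6% ± 11.03 of the Ifng UMIs at day 10 and 55.3% ± 17.0 at day 17. In one WT graft of day 17 NK cells held 41.7% of the Ifng UMIs, and in one mutant graft of that day ILC1 held 21.4%. Between genotypes no difference in source passed, and each adjusted p was 0.870.

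**Figure D2:**
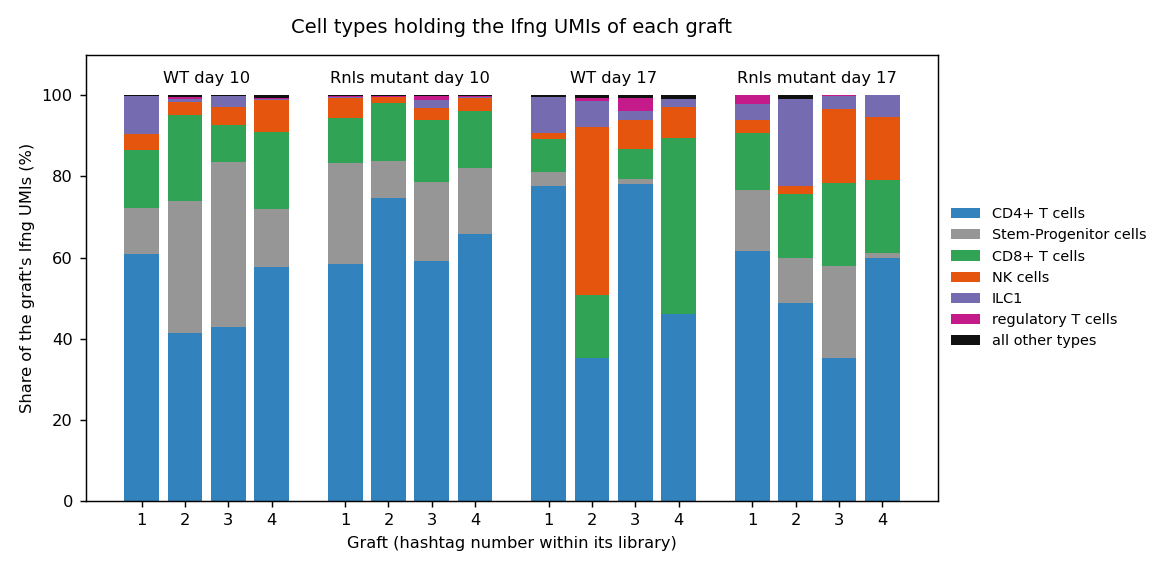
Share of each graft's Ifng UMIs (vertical axis, percent) by deposited cell type, 1 bar per graft, grouped by genotype and day. CD4+ T cells hold between 35.2% and 78.2% in every graft, and the grey Stem-Progenitor segment averages 24.7% and 17.5% in the day 10 groups and 1.19% and 12.5% in the day 17 groups.

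The 2 receptor chains had opposite distributions. Ifngr1, the ligand-binding chain (chr10:19591949-19610229, + strand), was high in lymphocytes, with 1587 ± 279 CPM in NK cells, 1502 ± 271 in regulatory T cells, 1440 ± 495 in ILC1, 1359 ± 100.9 in CD8+ T cells and 1193 ± 170 in CD4+ T cells. It was lower in myeloid cells, with 254 ± 133 in monocytes, 207 ± 94.4 in granulocytes, 157 ± 52.1 in macrophages and 154 ± 63.7 in dendritic cells. Neighbours within each of these 2 sets differed by less than the larger SD, and Stem-Progenitor cells lay between them at 731 ± 168, below CD4+ T cells in 12 of 12 grafts. Ifngr2, the signal-transducing chain (chr16:91547072-91565623, + strand), was at 162 ± 47.8 CPM in monocytes, 141 ± 76.0 in granulocytes, 116 ± 14.4 in macrophages and 115 ± 28.8 in dendritic cells. In lymphocytes it was at 18.0 ± 15.01 in regulatory T cells, 4.597 ± 3.81 in CD4+ T cells, 0.791 ± 1.67 in NK cells and 0.690 ± 1.201 in CD8+ T cells. No Ifngr2 UMI was found in 169 ILC1 of the grafts with 10 or more, which allows a share of up to 1.78% of cells with a UMI. In the 1515 NK cells 4 Ifngr2 UMIs were counted. Across the 29 clusters the levels of the 2 chains had a Pearson r of -0.73, and Ifng went with Ifngr1 (r = 0.89) and against Ifngr2 (r = -0.82).

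**Figure D3:**
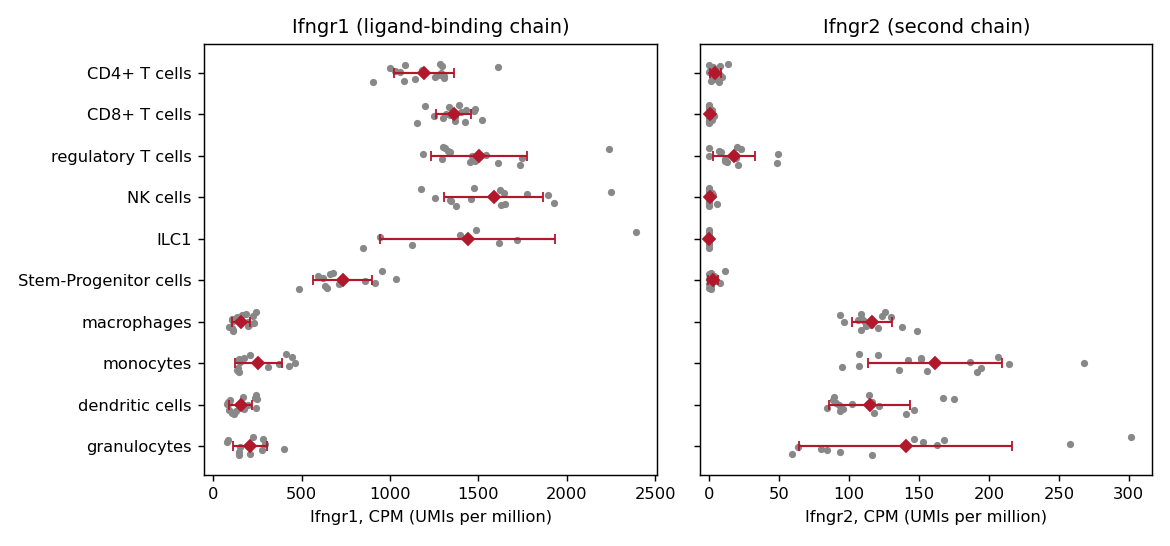
Ifngr1 (left) and Ifngr2 (right) in CPM for each graft with at least 10 cells of a type (grey points), with the mean and SD over grafts (red diamonds and bars). Ifngr1 is above 480 CPM in every lymphocyte and Stem-Progenitor graft shown, whereas Ifngr2 is highest in the 4 myeloid types.

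At day 17, Ifngr1 rose in macrophages, dendritic cells and monocytes. In macrophages it was at 114, 107, 108 and 135 CPM (WT day 10) and 112, 110, 108 and 87.0 (mutant day 10). At day 17 it was at 222, 163, 184 and 239 (WT) and 199, 201, 229 and 194 (mutant). The groups of the 2 days did not overlap, and the log2 fold change was 0.74 ± 0.10 (edgeR adjusted p = 8.46e-06). This was 1 of 5 members called in macrophages, where 50.9% of all tested genes were called. In dendritic cells Ifngr1 was at 76.6, 89.6, 84.6 and 96.7 (WT day 10), 120, 106, 127 and 90.0 (mutant day 10), 247, 239, 169 and 241 (WT day 17) and 177, 244, 161 and 199 (mutant day 17). Again the days did not overlap (1.08 ± 0.13, adjusted p = 9.88e-06), and 3 members were called against 27.1% of all genes. In monocytes it was at 151, 145, 144 and 177 (WT day 10), 147, 141, 135 and 138 (mutant day 10), 447, 205 and 411 in the 3 WT day 17 grafts with enough cells, and 308, 428, 371 and 462 (mutant day 17). The days did not overlap there either (1.14 ± 0.15, adjusted p = 5.70e-05), and 2 members were called against 14.4% of all genes. Within each genotype the change passed in all 3 types, with log2 fold changes of 0.64 and 0.84 in macrophages, 1.33 and 0.82 in dendritic cells and 0.99 and 1.28 in monocytes for WT and mutant grafts. Of all genes tested, 25.1% and 42% were called within these genotypes in macrophages, 10.2% and 14.6% in dendritic cells and 3.84% and 3.19% in monocytes. No lymphocyte type had a called change of Ifngr1.

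Ifngr2 was called only in macrophages among the 3 types in which it was tested, with a small fall of 0.27 ± 0.09 on the log2 scale (edgeR adjusted p = 0.0165) and day groups that overlapped (93.6 to 126 CPM at day 17, 106 to 149 at day 10). In all CD45+ cells Ifngr2 was higher at day 17 (0.35 ± 0.11, adjusted p = 0.0114), together with the larger share of macrophages.

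The kinases were expressed in every cell type that had grafts with at least 10 of its cells, whereas the 13 mast cells held no Jak2 UMI. Their called day changes over both genotypes lay between -0.44 and 0.66 on the log2 scale. Jak1 (chr4:101152367-101265282, - strand) was highest in NK cells at 875 ± 145 CPM, and Jak2 (chr19:29251828-29313080, + strand) was at 509 in CD4+ T cells and 504 in regulatory T cells against 137 in macrophages. Jak1 rose in CD4+ T cells by 0.30 ± 0.07 (edgeR adjusted p = 0.00188). The 8 day 17 grafts, from 528 to 665 CPM, lay above the day 10 grafts, from 396 to 482. Jak2 was higher at day 17 in CD4+ T cells (0.38 ± 0.10, adjusted p = 0.00530) and in regulatory T cells (0.66 ± 0.16, adjusted p = 0.00453), its only member called, against 15.7% of all genes. It was lower in CD8+ T cells (-0.44 ± 0.09, adjusted p = 0.000999), also the only member called there, against 21.4% of all genes, and in macrophages (-0.38 ± 0.13, adjusted p = 0.0221). Jak2 thus moved in both directions among T cells. In CD4+ T cells the mutant grafts stood at 678, 713, 634 and 563 CPM at day 17 and at 403, 401, 387 and 401 at day 10, without overlap, whereas the WT grafts of day 17 (614, 330, 536 and 691) overlapped those of day 10 (503, 415, 435 and 443). In NK cells and ILC1 no member was called, with 12.9% and 15.5% of all genes called. Before adjustment 2 members in NK cells and 3 in ILC1 had p under 0.05, and DESeq2 called 0 in both types.

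Irf1 and Socs1 are both induced by interferon gamma, and their promoters are shown because both fell in macrophages and dendritic cells while Ifngr1 rose. The 250 bases before the RefSeq start (GRCm38.p6) were searched for TTCNNNGAA, the palindromic core of a gamma-activated site, which 7.02% of 32851 promoters of that length held, and for a core of interferon-response elements, GAAA and GAAA with 2 bases between them (TTTC and TTTC on the other strand). The second motif was chosen after the sequences had been seen, and 2.98% of the promoters held it. Matches are in capitals, the last base is next to the start, and a match says only that these letters are present.
Irf1 (chr11:53769764-53770013, + strand): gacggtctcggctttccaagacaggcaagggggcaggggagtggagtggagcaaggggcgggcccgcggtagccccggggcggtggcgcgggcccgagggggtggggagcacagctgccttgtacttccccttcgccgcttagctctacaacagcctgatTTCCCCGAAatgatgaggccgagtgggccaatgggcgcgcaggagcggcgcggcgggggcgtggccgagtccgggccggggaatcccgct
Socs1 (chr16:10785537-10785786, - strand): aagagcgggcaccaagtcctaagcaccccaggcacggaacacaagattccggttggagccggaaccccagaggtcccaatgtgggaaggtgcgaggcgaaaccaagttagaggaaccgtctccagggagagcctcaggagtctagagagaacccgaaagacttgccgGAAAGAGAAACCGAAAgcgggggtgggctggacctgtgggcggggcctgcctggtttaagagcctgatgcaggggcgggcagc
Ifngr1 (chr10:19591699-19591948, + strand): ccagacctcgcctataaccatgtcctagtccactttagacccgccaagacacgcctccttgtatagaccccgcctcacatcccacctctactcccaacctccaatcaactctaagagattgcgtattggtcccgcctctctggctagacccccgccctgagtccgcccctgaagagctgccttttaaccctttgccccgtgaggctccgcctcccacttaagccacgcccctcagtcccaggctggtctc

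The Irf1 promoter shown held 1 match to TTCNNNGAA, from 90 to 82 bases before the start. A second listed Irf1 promoter (chr11:53770223-53770472, + strand), not shown, held neither motif. The Socs1 promoter held no match to TTCNNNGAA but had 2 overlapping matches to the interferon-response core, from 83 to 74 and from 77 to 68 bases before the start. Neither motif was in the Ifngr1 stretch. Of the other members, Ifng held TTCNNNGAA at 249 to 241 bases before the start, and Ifngr2, Jak1 and Jak2 held neither.

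Irf1 (chr11:53770014-53778374, + strand) was highest in granulocytes at 2885 ± 1208 CPM, followed by monocytes at 851, dendritic cells at 592 and macrophages at 539. It was lowest in Stem-Progenitor cells at 158. Across clusters the genes nearest to its pattern were Il1b (r = 0.87) and Irgm1 (r = 0.87), the latter an interferon-induced GTPase. In dendritic cells Irf1 was at 880, 758, 730 and 621 (WT day 10) and 942, 958, 570 and 858 (mutant day 10), and at 314, 329, 541 and 298 (WT day 17) and 475, 265, 425 and 517 (mutant day 17). Every day 17 graft lay below every day 10 graft, and Irf1 fell by 0.97 ± 0.16 on the log2 scale (edgeR adjusted p = 0.000219). In macrophages it was at 628, 570, 545 and 539 (WT day 10), 769, 555, 607 and 546 (mutant day 10), 416, 431, 463 and 430 (WT day 17) and 534, 377, 488 and 726 (mutant day 17). The WT days did not overlap and the mutant days did. Irf1 fell by 0.46 ± 0.12 there (adjusted p = 0.00337), with -0.56 (adjusted p = 0.0190) in WT grafts and -0.35 (adjusted p = 0.0933) in mutant grafts.

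CD4+ T cells moved the other way. Irf1 in CD4+ T cells was at 164, 162, 176 and 158 CPM (WT day 10), 185, 181, 169 and 191 (mutant day 10), 248, 194, 346 and 276 (WT day 17) and 211, 259, 276 and 242 (mutant day 17). All day 17 grafts were above all day 10 grafts, a rise of 0.45 ± 0.09 (edgeR adjusted p = 0.000646). Socs1 in these cells was at 90.0, 111, 112 and 74.6 CPM (WT day 10) and 150, 144, 148 and 206 (WT day 17) without overlap, a rise of 0.54 ± 0.18 (adjusted p = 0.0387) in WT grafts. In mutant grafts Socs1 overlapped between the days, with 87.6 to 156 (day 10) against 94.7 to 139 (day 17), and did not pass (adjusted p = 0.999).

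Socs1 (chr16:10782240-10785536, - strand) was at 313 CPM in monocytes, 295 in granulocytes, 239 in regulatory T cells and 174 in macrophages, against 57.2 in NK cells. It was the member with the largest day change in macrophages, at 197, 330, 255 and 240 CPM (WT day 10) and 214, 200, 347 and 390 (mutant day 10), and at 67.7, 41.6, 113 and 70.5 (WT day 17) and 116, 48.8, 76.6 and 69.1 (mutant day 17). The days did not overlap in either genotype. Socs1 fell by 1.96 ± 0.21 on the log2 scale (edgeR adjusted p = 1.01e-06). It was called within each genotype, with an adjusted p of 0.000241 in WT and 5.6e-05 in mutant grafts.

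The makeup of macrophages also moved with the day. Cluster 4, led by Inhba, Mmp12 and Nos2 (inducible nitric oxide synthase), was 54.2% and 70.9% of macrophages at day 10 in WT and mutant grafts, and 8.28% and 5.07% at day 17. Within cluster 5, which had 4 grafts in each group, Socs1 was at 245 ± 33.8 and 250 ± 195 CPM at day 10 and at 76.2 ± 53.2 and 107 ± 48.8 at day 17 for WT and mutant grafts. Ifngr1 in cluster 5 was at 127 ± 63.7 and 152 ± 78.0 at day 10 and 361 ± 79.0 and 255 ± 57.3 at day 17. Both members thus differed in the same direction between days within this cluster as in all macrophages, as values without a test. Summed NK cell markers in macrophages were at 10.5 to 34.5 CPM at day 10 and 2.09 to 4.68 at day 17, and T cell markers at 9.31 to 18.4 and 2.56 to 14.1. Their part in these results was not tested.

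In the other myeloid types the fall of Socs1 was less secure. In dendritic cells it was at 207, 249, 258 and 176 CPM (WT day 10), 167, 300, 231 and 221 (mutant day 10), 17.9, 24.8, 331 and 76.0 (WT day 17) and 90.7, 42.1, 113 and 92.8 (mutant day 17). One WT graft of day 17, graft 3, was above every day 10 graft, and the others were below. The change was -1.05 ± 0.38 (edgeR adjusted p = 0.0454) with all grafts and -2.02 ± 0.23 (adjusted p = 3.99e-06) without graft 3. The call was lost with DESeq2 (adjusted p = 0.0688), with at least 20 cells per graft (adjusted p = 0.102) and when any one of 14 other grafts was left out (adjusted p from 0.0503 to 0.103). Summed NK cell markers in WT day 17 dendritic cells ran from 0 to 538 CPM, and granulocyte markers from 0 to 174. Leaving out graft 3 gave -1.11 ± 0.14 for Irf1 and 1.15 ± 0.13 for Ifngr1, and both were still called. Dendritic cells were few at day 17, with 12 to 50 in a WT graft, and the cluster led by Xcr1 and Cd24a went from 22.3% and 18.6% of them at day 10 to 63.1% and 58.9%. In monocytes Socs1 fell by 0.84 ± 0.26 (adjusted p = 0.0331) with overlapping day groups, and the call was lost with DESeq2 (adjusted p = 0.0582) and when any one of 6 grafts was left out. Monocytes of cluster 1, led by Vcan, Chil3 and Ly6c2, went from 83.8% and 76.7% of the type at day 10 to 41.7% and 45.8% at day 17, and cluster 14, led by Adgre4, Pparg and Ace, made up the rest. Within cluster 1 Socs1 was at 353 ± 116 and 475 ± 97.3 CPM at day 10 (4 grafts each) and 285 ± 127 (2 WT grafts) and 250.5 ± 117 (3 mutant grafts) at day 17, as values without a test. Ifngr1 in cluster 1 was at 132 ± 26.1 and 122 ± 10.2 at day 10 and 239 ± 47.8 and 220.2 ± 25.4 at day 17. In granulocytes Socs1 fell by 2.57 ± 0.56 (edgeR adjusted p = 0.00868), their only member called, against 8.74% of all genes. That call rested on 2 to 4 grafts in each group, and it was lost with at least 1 cell per graft (edgeR adjusted p = 0.0835).

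**Figure D4:**
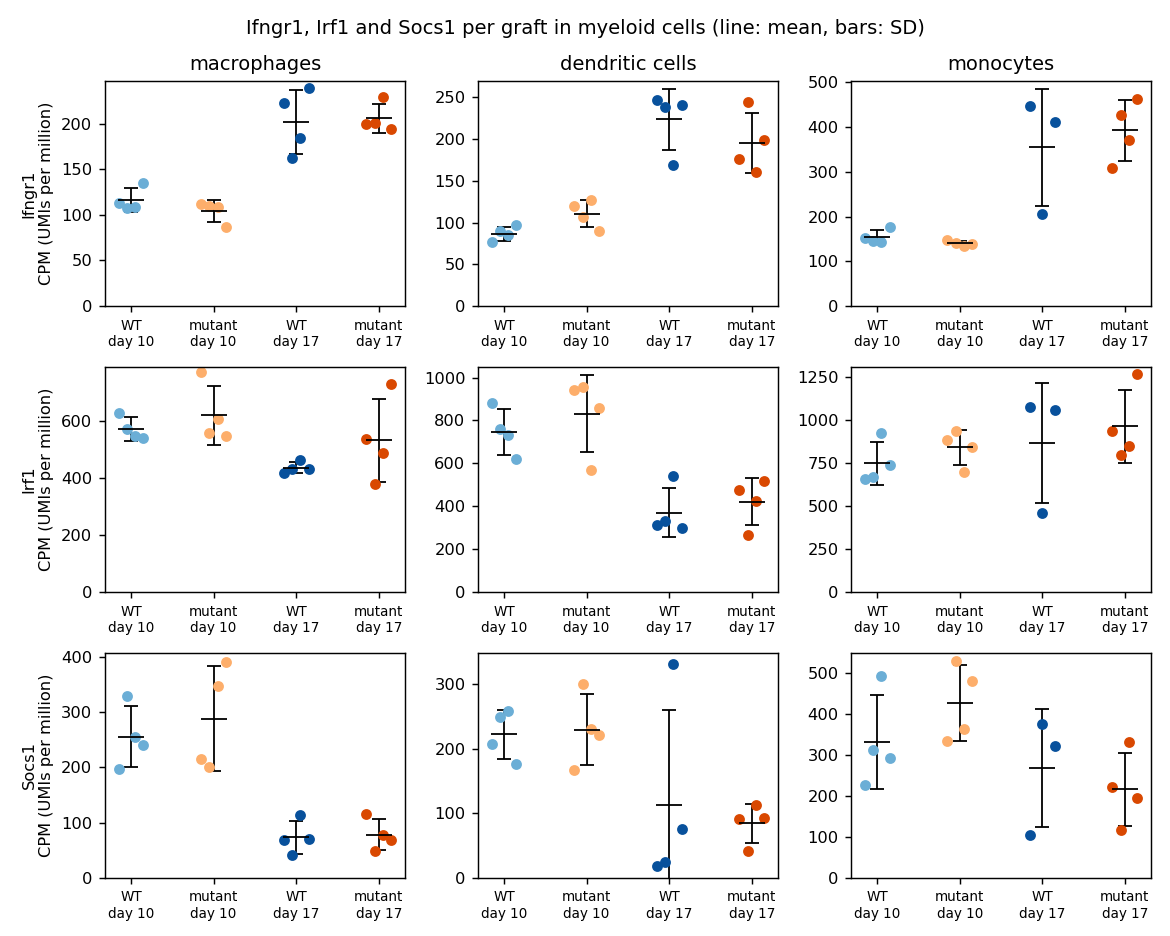
Ifngr1, Irf1 and Socs1 in CPM (rows) in macrophages, dendritic cells and monocytes (columns) for each graft, with the mean (line) and SD (bars, which are clipped at 0). In macrophages and dendritic cells Ifngr1 is higher at day 17 in every graft, and in macrophages Socs1 is at most 116 at day 17 and at least 197 at day 10.

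The genotype comparison asked whether the pathway differed in immune cells of grafts with Rnls mutant and WT NIT-1 cells. With edgeR, 0 of the 52 tested pairs of member and cell type were called at day 10, at day 17 or over both days, and DESeq2 called 0 in each. Before adjustment 2, 6 and 6 pairs had p under 0.05. Few genes of any kind were called in this comparison. Over the 9 cell types, 0.123% of 45651 tested pairs of a gene and a cell type were called at day 10, 0.151% at day 17 and 0.00219% (1 pair) over both days.

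The lowest adjusted p values for Ifng were in T cells at day 17. Its level in CD8+ T cells at that day was 462, 120, 785 and 449 CPM in WT grafts and 146, 167, 304 and 332 in mutant grafts, which overlapped (-0.91 ± 0.33, edgeR adjusted p = 0.361). At day 10 the same cells were at 278, 374, 294 and 309 (WT) and 253, 431, 253 and 403 (mutant), with a change of 0.05 ± 0.24. In CD4+ T cells at day 17 the change was -1.41 ± 0.49 (adjusted p = 0.339), where WT grafts 1 and 3 were above every mutant graft, graft 2 was among them and graft 4 was below them. Over both days Ifng in CD4+ T cells differed by -0.70 ± 0.33 (adjusted p = 0.546). Without the filter on low counts Ifng was called over both days in CD4+ T cells (-0.71 ± 0.09, adjusted p = 7.49e-12) and in ILC1 (-1.52 ± 0.32, adjusted p = 0.0131). The changes were nearly those with the filter, but the SE was 0.09 in place of 0.33 in CD4+ T cells and 0.32 in place of 0.74 in ILC1. These 2 calls thus rest on smaller errors and not on larger differences, and they are not taken as a genotype difference. The ILC1 value with the filter was -1.49 ± 0.74 (adjusted p = 0.982), from 2 grafts in each group at 2289 and 380 (WT day 10), 58.4 and 797 (mutant day 10), 1905 and 179 (WT day 17) and 552 and 429 (mutant day 17). In NK cells Ifng differed by 0.14 ± 0.30 (adjusted p = 1.00) between genotypes. In macrophages no member differed by more than 0.20 on the log2 scale over both days, and at day 17 the largest difference was that of Irf1 at 0.30 (adjusted p = 0.834).

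**Figure D5:**
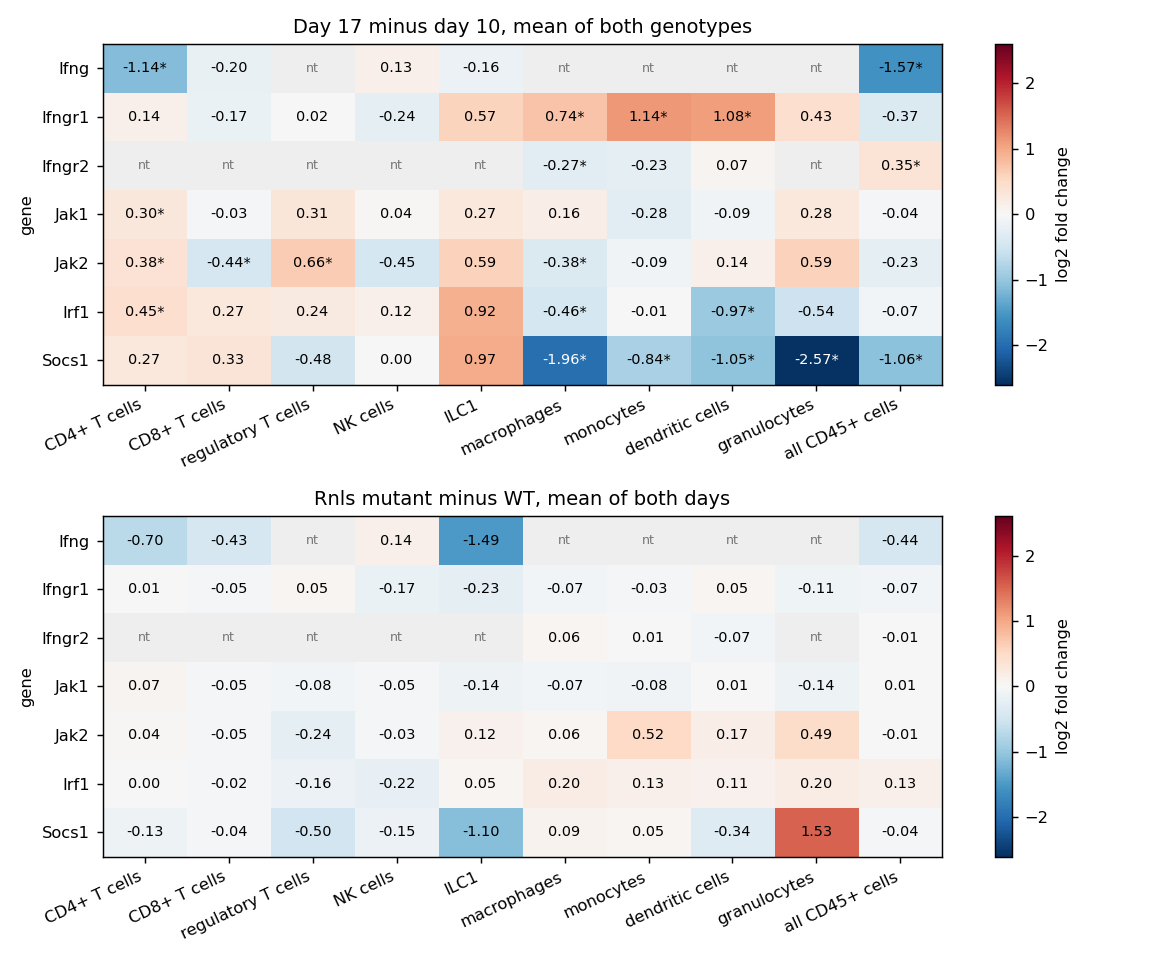
Log2 fold changes of the 7 members by cell type for day 17 against day 10 (top) and Rnls mutant against WT (bottom), with blue for lower, red for higher, an asterisk for an edgeR adjusted p under 0.05 and nt for genes that did not pass the filter. The top panel holds 20 asterisks, counting the 3 in all CD45+ cells, and the bottom panel none.

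One member showed a genotype difference that changed between the days. Socs1 in regulatory T cells was at 123, 222, 295 and 240 CPM (WT day 10) and 335, 374, 331 and 202 (mutant day 10), and at 277, 417 and 217 (WT day 17) and 104, 58.8 and 153 (mutant day 17) in the grafts with enough cells. At day 17 the genotypes did not overlap, and at day 10 they did. The genotype change at day 17 minus that at day 10 was -2.03 ± 0.47 (edgeR adjusted p = 0.0260), the only one of 52 pairs called, against 0.326% of all pairs of a gene and a cell type and 1.12% of genes in regulatory T cells, and DESeq2 also called 1. The genotype change at day 17 alone was -1.51 ± 0.39 (adjusted p = 0.111). These levels rested on 3 to 15 Socs1 UMIs in each mutant graft of day 17, and the call was lost without any one of 4 grafts (mutant day 10 graft 3, WT day 17 graft 3, mutant day 17 grafts 1 and 2), with values between -1.97 and -1.61. Summed macrophage markers in these regulatory T cells were at 196 to 295 CPM in mutant day 17 grafts and 19.7 to 92.4 in WT day 17 grafts. Their part in the difference was not tested.

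In the myeloid cells the genes induced by interferon gamma were lower at day 17 where they were called, as were Irf1 in macrophages and dendritic cells and Socs1. Of 34 listed genes, 32 were tested in macrophages, and 25 were lower and 0 higher at day 17, where 25.3% of all genes were lower, with a median log2 fold change of -0.76 against 0.02 over all genes. In dendritic cells 24 of 28 were lower (13.6% of all genes), with a median of -1.27, and in monocytes 13 of 31 (8.11%), with a median of -0.50. The monocyte count was 7 without mutant day 17 graft 2 and 21 without the filter on low counts. In macrophages Cxcl10, a chemokine that draws T cells, stood at 824 ± 241 and 804 ± 190 CPM at day 10 and 180 ± 43.9 and 141 ± 62.9 at day 17 (-2.51 ± 0.22, edgeR adjusted p = 2.07e-07). The guanylate-binding protein Gbp5 (-1.40 ± 0.16), the costimulatory receptor Cd40 (-1.21 ± 0.13) and the immunoproteasome subunits Psmb8 (-1.05 ± 0.08) and Psmb10 (-1.06 ± 0.10) were lower as well. Cxcl9 fell in dendritic cells, from 2885 ± 747 and 2009 ± 727 to 578 ± 252 and 349 ± 215 CPM (-2.34 ± 0.27, adjusted p = 6.64e-06), and in monocytes (-1.44 ± 0.27, adjusted p = 0.00152). In the other cell types fewer were called. In CD4+ T cells 2 of 25 were higher and 7 lower (18.8% and 17.7% of all genes), with the adhesion molecule Icam1 higher (0.93 ± 0.19) and Gbp3 lower (-0.67 ± 0.15). CD8+ T cells had 1 higher and 6 lower of 23 (10.6% and 10.8% of all genes), and regulatory T cells 1 and 3 of 16 (7.89% and 7.81%). NK cells had 2 of 14 lower (6.56% of all genes), granulocytes 2 of 22 (4.42%) and ILC1 0 of 11 (8.25%), and none was called higher in these 3 types. No gene of this or the other lists was called between the genotypes over both days or for a difference between days. Most tested genes listed for type I interferon were also lower at day 17 in macrophages, dendritic cells and monocytes. The day changes of both interferon lists cannot be told apart here.

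Other parts of the receptor complex fell in macrophages too. Of 10 genes, 6 were lower and 1 higher, where 25.3% and 25.6% of all genes were, among them the interferon-induced inhibitor Usp18 (-1.77 ± 0.25, edgeR adjusted p = 2.38e-05) and Socs3 (-0.42 ± 0.10), whereas Pias1, an inhibitor of cytokine signaling, rose (0.79 ± 0.08). Dendritic cells had 4 of 10 lower (13.6% of all genes), and CD4+ T cells 2 of 9 higher (18.8% of all genes), Socs3 (0.96 ± 0.15) and Pias1 (0.61 ± 0.11), and 1 lower, the phosphatase Ptpn1. Among 8 interferon regulatory factors and coactivators, macrophages had 4 lower, against the same 25.3% of all genes, Irf7 (-1.98 ± 0.18), Irf8 (-0.91 ± 0.10), Batf2 and Stat2, and 1 higher, Ciita, which drives MHC class II genes (0.60 ± 0.14).

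The signals that promote Ifng, and the factors of the cells that make it, were also counted. Of 9 tested genes for inducers of Ifng and their receptors, macrophages had 7 lower and 1 higher (25.3% and 25.6% of all genes), with Il12b, a chain of interleukin-12, at 4.97 ± 1.17 and 5.66 ± 5.72 CPM at day 10 and 1.19 ± 0.977 and 0.356 ± 0.271 at day 17 (-3.01 ± 0.52, edgeR adjusted p = 0.000146), and with Il15 higher (0.41 ± 0.15). On the receiving side, Il12rb2, a receptor chain for interleukin-12, was higher at day 17 in CD4+ T cells (0.97 ± 0.13) and NK cells (0.46 ± 0.15), and Il18r1, for interleukin-18, was lower in NK cells (-0.85 ± 0.11). Stat4, the factor activated by interleukin-12, was higher in CD4+ T cells (0.71 ± 0.09), CD8+ T cells (0.40 ± 0.10), NK cells (0.51 ± 0.13) and ILC1 (1.69 ± 0.29), and Runx3, a factor of cytotoxic lymphocytes, was lower in CD4+ T cells (-0.65 ± 0.12), CD8+ T cells (-0.61 ± 0.12) and ILC1 (-1.32 ± 0.40). Tbx21, the lineage factor T-bet, was called in ILC1 (1.15 ± 0.33).

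Across the 16 grafts, Ifng in all CD45+ cells was set against 8 pathway genes in macrophages, and p-values were adjusted over these. Within libraries, after the library mean was subtracted, Socs1 had a Pearson r of 0.04 (permutation p = 0.935) and a Spearman rho of 0.14 (permutation p = 0.671), and Ifngr1 an r of -0.09 (permutation p = 0.880) and a rho of -0.14 (permutation p = 0.693). Jak1 had the highest r at 0.53 (permutation p = 0.291, rho = 0.15, permutation p = 0.663), which was -0.15 without the 2 grafts farthest from the median Ifng. Every adjusted p for r was 0.935. Without subtracting the library mean r was 0.71 for Socs1, -0.76 for Ifngr1 and 0.80 for Cxcl9 (adjusted permutation p = 0.00859, 0.00500 and 0.00264), and these relations were not detected within libraries, where Cxcl9 had an r of 0.31 (permutation p = 0.462) and a rho of 0.28 (permutation p = 0.365).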

How the data were processed

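Immune cells of NIT-1 grafts were profiled in 4 10x 3' libraries. The authors deposited a table of UMI counts per gene and cell, not normalized, with cells over 1000 UMIs, with cell types, clusters and hashtags. The submitters' processing notes name Cell Ranger and mm10. Doublet removal is not given in the sources used here, and no doublet caller was run.

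UMI counts were summed per graft (library and hashtag) and deposited cell type, and levels are CPM, scaled to 1000000 UMIs of that sum. Grafts with at least 10 cells of a type were tested, in types with 2 or more such grafts per group. The tests were edgeR 4.0.16 quasi-likelihood tests (R 4.3.3, TMM scaling, filterByExpr on low counts), with Benjamini-Hochberg adjustment over all tested genes of a type and a threshold of 0.05. Groups entered as genotype by day, and changes are Rnls mutant minus WT and day 17 minus day 10. Shares of cells with an Ifng UMI are expected shares after thinning to 1000 UMIs per cell. They were compared by exact two-sided permutation within the other factor (4900 assignments, 36 for ILC1, whose smallest p is 0.0556), and relations across grafts by 100000 permutations within libraries. Exact intervals are Clopper-Pearson at 95% and, like the limit of 3 counts for a count of 0, cover counting error only. Leading genes of a cluster have the highest ratio to all other cells.

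Alternatives were DESeq2 1.42.0, relative log expression scaling, no filter, at least 1 or 20 cells per graft, no cells in the top 5% by UMIs, the hashtag number as a block, and each graft left out. The last was not run for edgeR fits in granulocytes and ILC1. On simulated counts with known changes, edgeR recovered 90.9% of genes changed by 1 on the log2 scale in macrophages (day comparison, 9150 genes). It recovered 86.1% in CD4+ T cells, 85.2% in NK cells and 74.6% in CD8+ T cells, with between 6 and 14 false calls in each type. Every simulated gene had the same spread and no graft or library effect, so recovery of genes that vary more between grafts was not measured.

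The members and gene lists were chosen with earlier results of these data known. The genes named are, for each list, direction and type, at most 5 called genes with the smallest p in the mean day or genotype comparison, and the 5 genes nearest in pattern over clusters to Ifng, Irf1 and Socs1. The Rnls transcript was not analysed here, and the values of 1 other pathway gene, which enters the counts, are not reported here.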

Additional observations from a re-analysis of the deposited data

Results flagged for a closer look

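In groups of 4 grafts, 9 of 181 tested groups held a graft whose gap to its neighbour was above the Dixon 95% limit, and chance gives about 1 in 20. In macrophages this was Ifngr1 of Rnls mutant day 10 graft 4 at 87.0 CPM, the lowest (next 108). In CD4+ T cells it was Jak2 of Rnls mutant day 10 graft 3 at 387 (next 401) and Socs1 of WT day 17 graft 4 at 206 (next 150). Among monocytes, Jak2 of WT day 10 graft 3 stood at 219 (next 146) and Jak1 of Rnls mutant day 17 graft 4 at 316 (next 175). In NK cells, Jak2 of WT day 10 graft 2 was at 580 (next 486) and Irf1 of WT day 17 graft 4 was lowest at 159 (next 377). WT day 17 graft 3 stood apart in dendritic cells for both Ifngr1, lowest at 169 (next 239), and Irf1, highest at 541 (next 329). This graft was also the one with high Socs1 in dendritic cells.

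Socs1 in regulatory T cells differed in its genotype change between the days, by -2.03 ± 0.47 on the log2 scale (edgeR adjusted p = 0.0260), a test of the difference itself that rested on few UMIs.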

How the results depend on the processing

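Of 20 calls of members over both genotypes, 20 kept their side of the threshold with relative log expression scaling and with the hashtag number as a replicate block, 18 with DESeq2, 18 without the filter on low counts and 19 without the 5% of cells with most UMIs, and 279 of 300 held when 1 graft was left out. Grafts were not left out in granulocytes and ILC1, so the granulocyte Socs1 call is not among the 300. None of the 20 calls turned its direction in the settings run, which was compared only where a value passed the threshold. Hashtag numbers were not taken to pair the grafts, since no source ties them to hosts and not every pair correlated. Of 68 pairs, with a median correlation of 0.0241, 18 were above 0.1 and 27 correlated best with their own number. At day 10 the WT graft numbered 1 correlated best with the mutant graft numbered 1 in every cell type compared and in all CD45+ cells (0.375). The paper calls its replicates paired, so a pairing by number may be present that the main tests do not use. With the block, the count of all genes called by day in granulocytes went from 81 to 32 and in ILC1 from 275 to 93, and over both days by genotype in CD4+ T cells from 1 to 3.

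Without the filter, members called by genotype numbered 1 in CD4+ T cells at day 17 and over both days, 1 in CD8+ T cells at day 17, and 1 in ILC1 at day 10 and over both days. Members called by day were then 3 in CD8+ T cells, 2 in NK cells and 5 in all CD45+ cells, and 21 interferon gamma-induced genes were lower in monocytes. With DESeq2, members called by day were 1 in monocytes and 5 in all CD45+ cells, the latter also without the 5% of cells with most UMIs. With at least 20 cells per graft monocytes had 1. With at least 1 cell per graft granulocytes had 0 and ILC1 1, and the regulatory T cell Socs1 difference was -1.70 (edgeR adjusted p = 0.125). Using cells with Ifng (not thinned) in place of UMIs, the day differences in source were -11.4 points for CD8+ T cells (3.04 by UMIs), 6.29 for ILC1 and -10.1 for Stem-Progenitor cells (exact permutation, adjusted p = 0.00980, 0.00490 and 0.0114). Without subtracting library means, r was 0.71 for Socs1, -0.76 for Ifngr1 and 0.80 for Cxcl9. The causes were not tested.

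When 1 graft was left out, members called by genotype at day 17 in CD8+ T cells ran from 0 to 1. Members called by day ran from 1 to 2 in CD8+ T cells and monocytes, 2 to 3 in dendritic cells, 4 to 5 in macrophages and in CD4+ T cells, 0 to 1 in NK cells and 3 to 5 in all CD45+ cells, and lower interferon gamma-induced genes in monocytes from 7 to 18. The Socs1 difference in regulatory T cells ran from -2.41 to -1.61, the day difference in the share of NK cells with Ifng from 4.15 to 7.36 points, and day differences in source from 2.603 to 5.78 for ILC1 and from -16.5 to -11.6 for Stem-Progenitor cells. All genes called by day in monocytes numbered 1167, 446 without WT day 17 graft 1 and 1967 without graft 3. All genes called by genotype over both days, 1 in CD4+ T cells and 0 in CD8+ T cells and dendritic cells, became 63, 16 and 34 without the filter and 8, 3 and 1 with DESeq2, which called 29 in all CD45+ cells against 0. DESeq2 called 232 genes by day in regulatory T cells against 366, and 176 in ILC1 against 275.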

Other observations

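Genes induced by type I interferon were also lower at day 17. In macrophages 13 of 16 tested genes were lower and 0 higher, where 25.3% of all genes were lower, with a median log2 fold change of -1.04. In dendritic cells 9 of 9 were lower (13.6% of all genes, median -2.71), in monocytes 12 of 16 (8.11%, median -1.32) and in NK cells 3 of 3 (6.56%, median -1.87). Isg15, a ubiquitin-like protein of this response, was at 553 ± 275 and 674 ± 250 CPM in macrophages at day 10 and 86.8 ± 42.4 and 41.9 ± 4.46 at day 17 (-3.51 ± 0.28, edgeR adjusted p = 8.40e-08), and the antiviral genes Rsad2 (-2.41) and Ifit1 (-2.47) were lower as well. No gene was on both lists, but both interferons induce some of the same genes. The day changes of the lists cannot be told apart here.

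Across the 29 clusters the genes nearest to Ifngr2 in pattern were Ctsh, a lysosomal protease (r = 0.95), Tifa (r = 0.94) and Il13ra1, a receptor chain for interleukin-13 (r = 0.94), a list added after the values were seen. Those nearest to Socs1 were less close, with Isg15 at r = 0.70 and Snx20 at r = 0.69. Irf1 and Socs1 had an r of 0.60 with each other, and Ifngr1 and Jak1 one of 0.84. These are descriptions over clusters that share libraries and depth.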
